A study of Arabidopsis thaliana with 28 samples.

Results

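The 33 loci described here make plastid isoprenoids and carotenoids in Arabidopsis thaliana or cut carotenoids into smaller compounds. They were chosen by locus identifier: the genes of the plastid methylerythritol phosphate (MEP) pathway, the isopentenyl diphosphate isomerases and a geranylgeranyl diphosphate synthase, the carotenoid synthesis genes from phytoene synthase on, and the carotenoid cleavage genes with the abscisic acid gene ABA2. All 33 were found among the 33557 loci of the expression table. A mean of at least 1 FPKM (fragments per kilobase of transcript, scaled to the fragments mapped in the library) over all libraries was required for a test, and 29 members were among the 18678 genes that met it. NCED5, NCED9, CCD7 and CCD8 were below it.

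The study followed de-etiolation, the change of a dark-grown seedling into a green one, in separate organs. Wild-type Col-0 seedlings grew for 3 days in darkness and were then sampled in darkness, early in light (15 min, 30 min and 1 h) or later in light (3 h, 6 h and 12 h). The lamps gave a simulated white light of 100 µmol m−2 s−1, and dark samples were handled under a green safe light. Poly(A) RNA was sequenced from cotyledons, which held the shoot apical meristem, and from hypocotyls, with the roots cut off. The 28 libraries form 14 groups of 2 biological replicates, labelled A and B. All 6 times of a tissue were compared with the same 2 dark libraries, and no dark libraries of the later times were used here, so that time in light cannot be told apart from age or time of day. Hand dissection sets what each group is a model of: whole organs with all their cell types.

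Plants have parallel routes to the building blocks of isoprenoids. The MEP pathway in plastids feeds carotenoids, the chlorophyll side chain, tocopherols, plastoquinone and the precursors of gibberellins, while the mevalonate pathway in the cytosol feeds sterols. Phytoene synthase (PSY) makes the entry into carotenoid synthesis; phytoene is desaturated and isomerised to lycopene, and lycopene is cyclised either by LCYE with LCYB, on the way to lutein, or by LCYB alone, on the way to beta-carotene, zeaxanthin and violaxanthin. Etioplasts of dark-grown cotyledons already hold carotenoids, and more are made as chloroplasts form in light, where they protect the photosynthetic apparatus. Cleavage by the NCED enzymes leads to abscisic acid, and cleavage by CCD7 and CCD8 to strigolactones.

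The libraries differed 0.614- to 1.72-fold from the average in relative depth, estimated from the steps of low values, of which 95.2% lay within 0.1 of a whole multiple of the smallest, against 20% for evenly spread values. At the average depth 1 FPKM of a 1500 nt transcript stood for about 16.6 reads. Replicates correlated at r = 0.965 to 0.985 across genes, and no libraries were identical. Transcripts of the chloroplast genome held 1.57% to 20.5% of the summed FPKM in cotyledons and 0.0691% to 0.537% in hypocotyls. The replicates of cotyledons after 12 h stood apart for the members, with B above A for 26 of 29 by a median of 0.45 on the log2 scale, against 0.02 over all tested genes. In dark cotyledons B was above A for 25 of 29 members, by a median of 0.20, and in cotyledons after 1 h for 23 of 29, by a median of 0.22. Chloroplast transcripts held 20.5% of the summed FPKM in the 1 h replicate A and 4.23% in B. The count of members called in cotyledons after 1 h was 5 without A and 4 without B, against 4 with both. Where a call ended without 1 of these libraries, the change without it is given below. Calls that held are not given again without them. Members called only with a library left out are counted but not named.

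Promoter sequence is shown for the pair of beta-carotene hydroxylase genes BCH1 and BCH2 and for the lycopene cyclase genes LCYB and LCYE, because the genes of each pair act at the same step or branch point and their transcripts behaved differently, and for PSY, at the entry of the pathway. Each run is the 250 nt before the gene's start in the RefSeq annotation of TAIR10.1, read 5′ to 3′ on the gene's strand; the submitters' processing notes name the build TAIR10. The BCH2 window is chr5:21337127-21337376 and that of BCH1 is chr4:13096050-13096299, both on the minus strand. The LCYE window is chr5:23076870-23077119 on the plus strand, the LCYB window is chr3:3166039-3166288 on the minus strand, and the PSY window is chr5:5662998-5663247 on the minus strand. Capitals mark the core ACGT, at which bZIP factors such as HY5 are known to bind, and, where it is complete, the G-box CACGTG that contains it.
BCH2: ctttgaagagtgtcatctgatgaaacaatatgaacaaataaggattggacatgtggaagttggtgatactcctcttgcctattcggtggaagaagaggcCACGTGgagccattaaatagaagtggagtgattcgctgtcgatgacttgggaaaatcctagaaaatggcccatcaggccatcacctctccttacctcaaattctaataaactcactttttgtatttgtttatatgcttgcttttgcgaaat
BCH1: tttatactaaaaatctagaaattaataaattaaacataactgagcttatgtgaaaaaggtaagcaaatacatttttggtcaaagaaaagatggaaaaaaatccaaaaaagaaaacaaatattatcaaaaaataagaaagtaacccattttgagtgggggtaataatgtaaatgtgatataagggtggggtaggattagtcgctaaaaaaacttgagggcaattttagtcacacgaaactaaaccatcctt
LCYE: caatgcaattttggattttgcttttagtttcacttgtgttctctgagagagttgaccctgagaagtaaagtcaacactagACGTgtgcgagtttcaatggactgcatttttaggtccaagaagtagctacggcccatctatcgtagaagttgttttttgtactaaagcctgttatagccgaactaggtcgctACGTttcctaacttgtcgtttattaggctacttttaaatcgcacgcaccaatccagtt
LCYB: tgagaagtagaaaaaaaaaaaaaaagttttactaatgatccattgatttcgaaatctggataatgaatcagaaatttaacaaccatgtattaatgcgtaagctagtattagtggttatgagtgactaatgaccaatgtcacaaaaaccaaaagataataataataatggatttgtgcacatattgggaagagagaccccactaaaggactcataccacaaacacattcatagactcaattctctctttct
PSY: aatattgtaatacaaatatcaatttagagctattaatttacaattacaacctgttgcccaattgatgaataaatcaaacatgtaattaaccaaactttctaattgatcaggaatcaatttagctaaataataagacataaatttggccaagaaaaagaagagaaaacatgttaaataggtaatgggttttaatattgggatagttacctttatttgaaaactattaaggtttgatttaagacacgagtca
BCH2 held a G-box that began 151 nt before its start, and BCH1 held no ACGT. LCYE held ACGT at 170 and 58 nt, whereas LCYB and PSY held none. Both strands of the 300 nt before each gene were searched for 5 motifs. The G-box was present in 3 of the 33 members (MDS, BCH2 and NCED9) and in 7.09% of 27443 promoters of protein-coding genes. ACGT was present in 17 members against 49% of promoters, CACATG, an E-box variant that PIF factors are known to bind, in 7 members against 13.1%, and ATCTA, an element described in the PSY promoter, in 15 members, PSY not among them, against 56%. The evening element AAAATATCT, present in 2.79% of promoters, was in 0 members. A match only says that these letters are present in the window.

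In darkness the members were mostly lower in hypocotyls than in cotyledons. A gene was called when its Benjamini-Hochberg adjusted p in limma, fitted on log2(FPKM + 1) over all 28 libraries, was under 0.05 and its change was at least 1 on the log2 scale; changes and folds are given on that scale with their standard error (SE), and each group mean rests on 2 libraries. By this rule 21 of 29 members were lower in hypocotyls, against 21.2% of all tested genes, and 1 was higher, NCED3, against 23.4%. The median change was −1.44 for the members and 0 for all tested genes. VDE (−3.73 ± 0.13), CYP97A3 (−3.64 ± 0.19), LCYE (−3.54 ± 0.15), BCH1 (−3.51 ± 0.16), DXS (−3.45 ± 0.11) and PSY (−3.40 ± 0.18) were lowest relative to cotyledons, all with an adjusted p of 8.9e-13 or less. Members without a call were IPP1, IPP2, Z-ISO, ZEP, ABA4, OR and ABA2. LCYB, lower by −1.05 ± 0.10, was not past the limit without the dark cotyledon replicate B (−0.96) or without the dark hypocotyl replicate B (−0.99).

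After 12 h of light 19 members were lower in hypocotyls, against 18.4% of all tested genes, and NCED3 was again higher, against 16.8%. The median change was −1.17 for the members and −0.04 for all tested genes. The distance had shortened for the genes that were farthest apart in darkness. PSY in hypocotyls was at 8.43% of the cotyledon mean in darkness and at 39.0% after 12 h, BCH1 at 7.73% and 45.2%, and CYP97A3 at 4.23% and 30.6%. BCH2 went the other way, from 22.5% to 1.75%. Its hypocotyl change of −0.66 after 12 h was not called, while the difference in response between tissues was (−2.24). Hypocotyl libraries held as few as an estimated 1.26 reads of BCH2, so these percentages are uncertain. The count after 12 h was 24 without the cotyledon 12 h replicate A and 16 without B; without B the calls of DXR (−0.69), MDS (−0.85), CYP97C1 (−0.87) and BCH1 (−0.87) ended, and quantile normalization ended those of DXR (−0.82), PSY (−0.94) and BCH1 (−0.91). In bulk samples fewer cells of a type and less RNA per cell cannot be told apart.

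Markers of cotyledon and mesophyll cells were higher in cotyledons in sum, and their sum was higher after 12 h than in darkness in both tissues. The summed FPKM of their 7 genes was 10879 to 15594 in dark cotyledons and 208 to 237 in dark hypocotyls. By 12 h it was 46447 to 53741 in cotyledons and 9786 to 10547 in hypocotyls, with 0 of the 7 genes at 0 in all libraries of either tissue. RBCS1A, a photosynthesis gene, made up most of the sum, with means of 30585 FPKM in cotyledons and 6663 in hypocotyls after 12 h. The markers did not all rise in cotyledons. From darkness to 12 h the cotyledon mean of AS1 went from 191 to 67.3 FPKM and that of GLK1 from 39.4 to 38.2. YAB3 was also lower, while RBCS1A, CA1, LHCB1.3 and YAB1 were higher. The leaf polarity genes YAB1 and YAB3 were at 51.1 to 101 FPKM in dark cotyledons and at 0.153 FPKM or less in dark hypocotyls, and at 2.11 FPKM or less in hypocotyls after 12 h. Across cotyledon libraries the 6 shoot apex genes had a summed FPKM of 7.46 to 15.9, and across hypocotyl libraries of 0.453 to 4.34, with WUS at 0 in all of the latter. The 9 root genes summed to at most 0.281 FPKM in cotyledons to 10.8 to 11.2 in dark hypocotyls and to 1.47 to 1.63 in hypocotyls after 12 h. The 8 vascular genes summed to 108 to 198 in cotyledons and 102 to 173 in hypocotyls, but in darkness 4 of them were higher and 1 lower in hypocotyls: SEOR1 was at 0.372 ± 0.0534 FPKM (SD, n = 2) in cotyledons and 22.4 ± 1.43 in hypocotyls, and PP2-A1 at 82.8 ± 10.8 and 5.58 ± 1.89, both named after their values were seen. The part of these cell types in the members' differences was not tested.

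**Figure D1:**
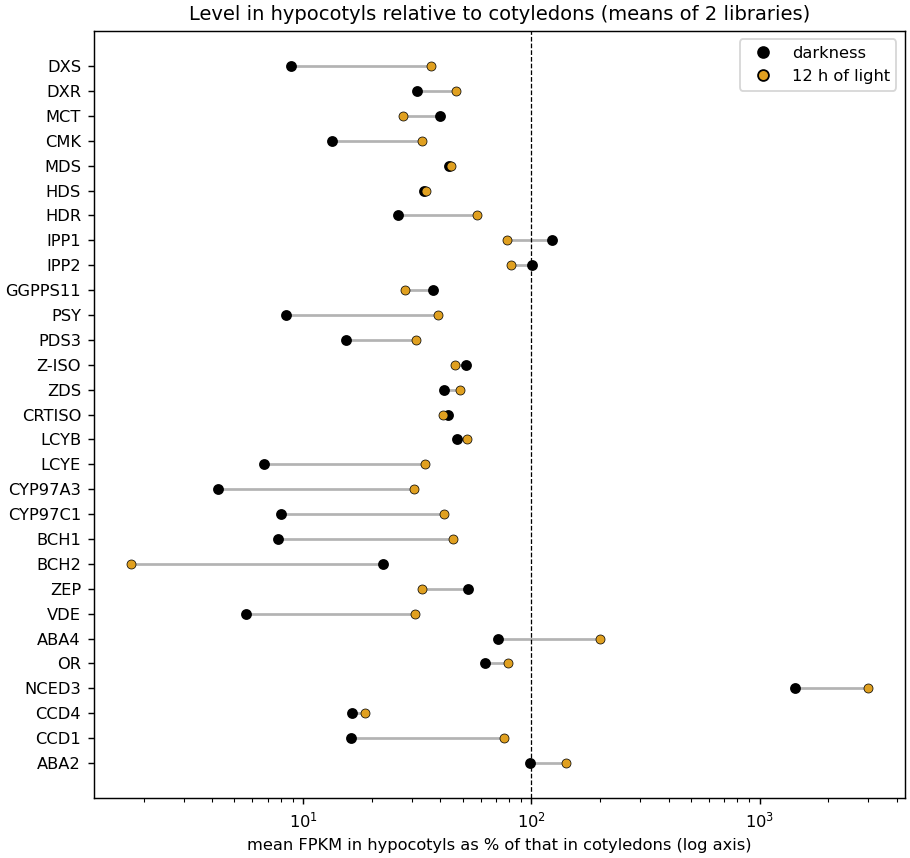
Mean FPKM in hypocotyls as a percentage of the mean in cotyledons (log axis) for the 29 tested members in pathway order, in darkness (black) and after 12 h of light (orange), each from 2 libraries per tissue with no error drawn. Most members lie left of the dashed line at 100%, and NCED3 lies far to the right. PSY moved from 8.43% to 39.0% while BCH2 moved from 22.5% to 1.75%. The BCH2 levels in hypocotyls were low, and no fall was called there.

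In light, members were called higher in both tissues, from 30 min in hypocotyls and from 1 h in cotyledons. At 15 min limma called 0 of 29 in either tissue, against 0.846% of all tested genes in cotyledons and 0.996% in hypocotyls in either direction. At an unadjusted p under 0.05 there was 1 member higher in cotyledons and 3 in hypocotyls, and by the same limits the authors' deposited table held 0 members after 15 min. In cotyledons after 30 min 0 members were called, against 3.37%, with 5 at an unadjusted p under 0.05 and 0 by the authors' deposited table. There 1 was called without the dark replicate B or without the 30 min replicate A. The largest cotyledon changes after 30 min were 0.99 among the cyclase and hydroxylase genes and 0.81 among the xanthophyll genes with OR. The authors' table gives ZEP 0.87 (Cuffdiff q = 0.0012) in that comparison. It gives DXS 0.60 (q = 0.0127) in hypocotyls after 15 min. The times of first calls therefore depend on the limit of 1. Cotyledon rises then numbered 4 after 1 h (6.56% of all tested genes rose), 9 after 3 h (13.1%), 12 after 6 h (16.9%) and 10 after 12 h (15.1%). Hypocotyl rises numbered 4 after 30 min (1.76%), 7 after 1 h (4.89%), 13 after 3 h (12.4%), 14 after 6 h (14.2%) and 18 after 12 h (16.6%). The only call in the other direction was NCED3 in hypocotyls after 3 h, when 8.82% of all tested genes fell.

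Medians over all tested genes lie near 0 in a scaled unit such as FPKM, and the members' medians are given beside them. At 6 h the median change was 0.82 for the members and 0.03 for all tested genes in cotyledons, and 1.00 against 0.01 in hypocotyls. At 12 h it was 0.79 against 0.04 and 1.20 against 0.02. The cotyledon count after 12 h was 16 without the 12 h replicate A and 7 without B, and the count after 3 h was 6 without the dark replicate A. Quantile normalization gave 5, 7 and 6 cotyledon calls after 3 h, 6 h and 12 h. The shares of all tested genes given above are those of the main fit. No share is given for the fits with a library left out or with quantile normalization. An excess over all tested genes can therefore not be read from those counts. By group means, 6 of the 29 members were highest after 1 h in cotyledons, 3 after 3 h, 10 after 6 h and 9 after 12 h. In hypocotyls 2 were highest after 1 h, 9 after 3 h, 5 after 6 h and 11 after 12 h.

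**Figure D2:**
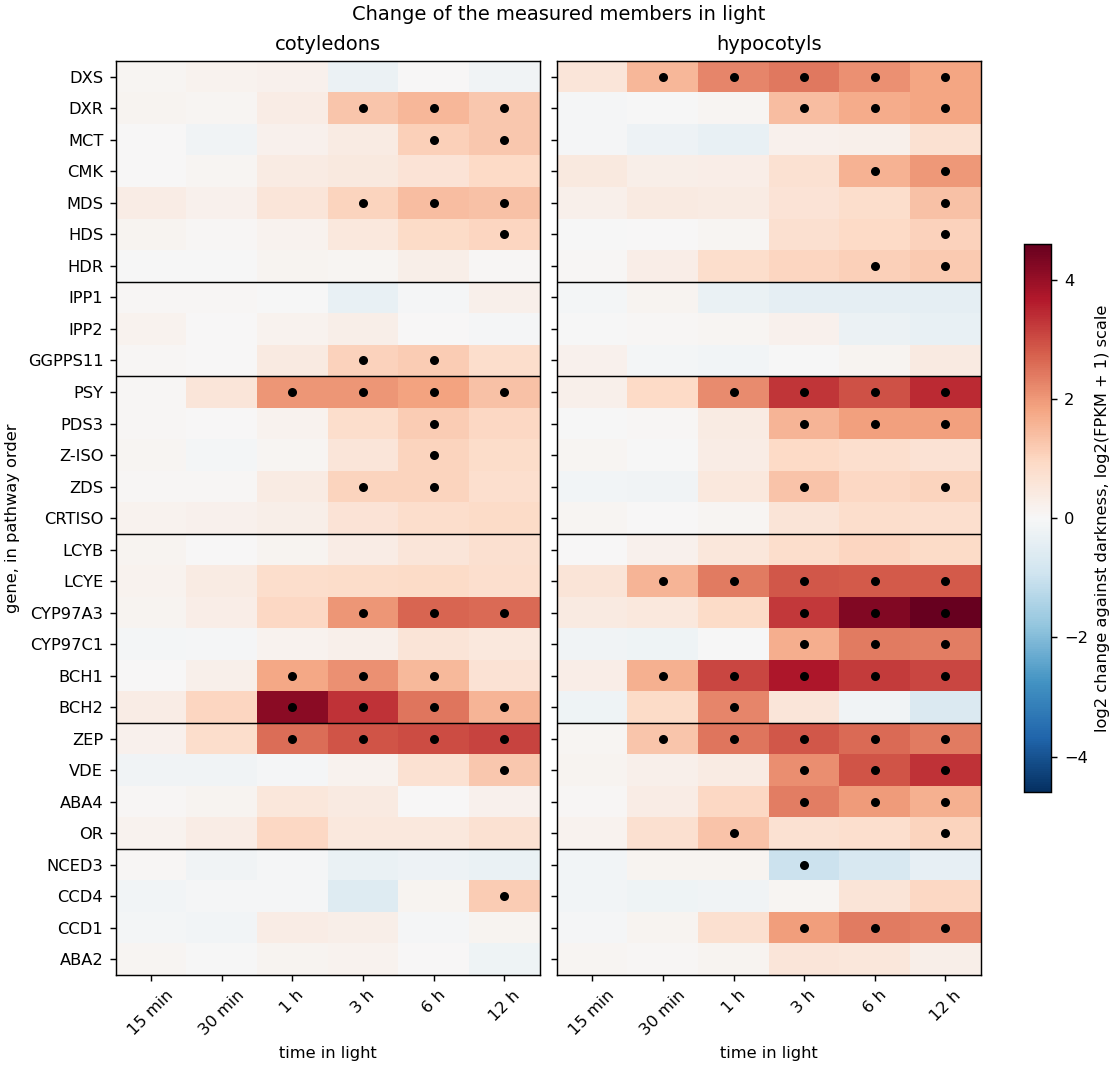
Log2 change against darkness on the log2(FPKM + 1) scale for the 29 tested members (rows, in pathway order, lines between steps) at 6 times in light (columns) in cotyledons and hypocotyls; dots mark calls. The first dots are those of PSY, BCH1, BCH2 and ZEP after 1 h in cotyledons. In hypocotyls they are those of DXS, LCYE, BCH1 and ZEP after 30 min. ABA4, CCD1, CYP97C1 and DXS have dots in hypocotyls only.

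Of the MEP pathway genes, DXR (AT5G62790), MDS (AT1G63970), MCT (AT2G02500) and HDS (AT5G60600) rose in cotyledons, from 3 h on at the earliest, and DXS (AT4G15560) rose in hypocotyls from 30 min on; DXS, CMK (AT2G26930) and HDR (AT4G34350) were called at no time in cotyledons. DXS encodes the enzyme of the first step, which is known to limit flux. In cotyledons it was already high, at 276 and 277 FPKM in the dark libraries, 311 and 318 after 1 h, 235 and 224 after 3 h and 209 and 285 after 12 h, and no time was called. In hypocotyls DXS was at 25.5 and 23.4 FPKM in darkness, 76.6 and 69.1 after 30 min, 123 and 116 after 1 h, and 142 and 132 after 3 h, before 98.1 and 80.8 after 12 h. Every hypocotyl library from 30 min on was above both dark libraries, and the tissues did not overlap at any time. The change in hypocotyls was 1.54 ± 0.11 after 30 min and 2.44 ± 0.11 after 3 h (5.42-fold, adjusted p = 2.1e-13). The response of hypocotyls exceeded that of cotyledons by 1.37 ± 0.16 after 30 min, 2.70 ± 0.16 after 3 h and 2.00 ± 0.16 after 12 h.

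DXR, which makes MEP itself, rose in both tissues, from 52.7 and 60.7 FPKM to 167 and 163 after 6 h in cotyledons, and from 17.4 and 18.5 to 61.3 and 59.9 in hypocotyls. The changes after 6 h were 1.53 ± 0.15 and 1.70 ± 0.15, and their difference of 0.17 was not called (adjusted p = 0.51). Of the 7 MEP genes, 3 rose after 6 h (16.9% of all tested genes) and 4 after 12 h (15.1%) in cotyledons, and 4 (14.2%) and 6 (16.6%) in hypocotyls. MCT, which adds a cytidyl group to MEP, rose in cotyledons to 28.4 and 32.1 FPKM after 6 h from 13.3 and 13.9, and was between 3.98 and 9.96 FPKM in hypocotyls with no call. CMK, the kinase of the next step, rose in hypocotyls from 4.11 and 3.60 FPKM to 17.9 and 18.7 after 12 h (1.99 ± 0.13). MDS, the cyclase after it, rose in cotyledons from 3 h and in hypocotyls after 12 h, by 1.36 ± 0.13 and 1.37 ± 0.13 at that time. HDS and HDR, the last enzymes, are known to make the 5-carbon diphosphates together; HDS rose in both tissues after 12 h (1.00 ± 0.17 and 1.06 ± 0.17), and HDR only reached the limit in hypocotyls (1.20 ± 0.13 after 12 h), with a difference between tissues of 1.15 ± 0.18.

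Several of these calls rest on single libraries. Without the cotyledon 12 h replicate B the changes after 12 h were 0.89 for DXR, 0.89 for MCT and 0.60 for HDS, and the last was 0.88 without the dark cotyledon replicate A. MDS in cotyledons after 3 h was 0.94 without that dark replicate, and HDR in hypocotyls after 6 h was 0.98 without the dark hypocotyl replicate B. The difference between tissues after 12 h was 0.87 for CMK and 0.91 for HDR without the cotyledon 12 h replicate A, and 0.92 for CMK without the dark cotyledon replicate B. Quantile normalization gave 0.94 for DXR and 0.83 for MDS in cotyledons after 3 h, and 0.93 for DXR and 0.65 for HDS after 12 h, where the authors' deposited table gives 0.97 for HDS.

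The isomerases had no call. IPP1 (AT5G16440) and IPP2 (AT3G02780) interconvert the 5-carbon diphosphates, and IPP1 was between 19.97 and 38.2 FPKM and IPP2 between 49.4 and 85.7 FPKM in all 28 libraries, and the ranges of hypocotyl and cotyledon libraries overlapped. GGPPS11 (AT4G36810), the main plastid geranylgeranyl diphosphate synthase, rose in cotyledons from 58.1 and 69.3 FPKM to 142 and 144 after 6 h (1.16 ± 0.13, adjusted p = 2.3e-07). In hypocotyls it was at 22.9 and 24.2 FPKM in darkness and 27 and 24.9 after 6 h, and the difference between tissues after 6 h was −1.03 ± 0.19. That difference was −0.90 without the dark cotyledon replicate A, −0.99 without the dark hypocotyl replicate B and −0.97 without the hypocotyl 6 h replicate B, and −0.72 after quantile normalization, which also took the cotyledon change after 6 h to 0.85. At 3 h the cotyledon change of 1.06 and the difference of −1.07 became 0.93 and −0.94 without the dark cotyledon replicate A, and 0.73 and −0.81 after quantile normalization. An annotated antisense locus covers all 1492 nt of the GGPPS11 exons, and 36.9% of the 50 nt stretches of IPP2 lie in exons of a neighbour on the other strand, so that values of both are uncertain where reads were counted without strand.

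PSY (AT5G17230), the entry enzyme of carotenoid synthesis, rose in both tissues. In cotyledons it was at 81.5 and 125 FPKM in darkness, 132 and 166 after 30 min, 354 and 499 after 1 h, 431 and 403 after 3 h, 359 and 373 after 6 h, and 220 and 305 after 12 h. Its hypocotyl libraries held 7.93 and 9.47 FPKM in darkness, 16.3 and 18.4 after 30 min, 41.5 and 43.6 after 1 h, 92.8 and 92.8 after 3 h, 74.0 and 69.5 after 6 h, and 106 and 99.4 after 12 h. Cotyledon means were highest after 1 h and hypocotyl means after 12 h, and from 1 h on every light library was above the dark libraries of its tissue. The change after 1 h was 2.05 ± 0.18 in cotyledons (4.13-fold, adjusted p = 1.6e-08) and 2.17 ± 0.18 in hypocotyls, and after 12 h it was 1.35 ± 0.18 and 3.42 ± 0.18 (10.7-fold, adjusted p = 1.4e-12). The difference between tissues was 0.12 after 1 h (adjusted p = 0.78) and 2.07 ± 0.26 after 12 h. At 3 h and 6 h it was 1.24 ± 0.26 and 1.06 ± 0.26, which became 0.94 and 0.76 without the dark cotyledon replicate B, and 0.95 after 6 h without the dark hypocotyl replicate A. Quantile normalization took the cotyledon change after 12 h to 0.84.

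Between phytoene and lycopene, ZDS (AT3G04870) in both tissues and PDS3 (AT4G14210) in hypocotyls were first called after 3 h, and PDS3 and Z-ISO (AT1G10830) in cotyledons after 6 h, against 1 h for PSY. PDS3, the phytoene desaturase, was at 45.9 and 51.6 FPKM in dark cotyledons and 112 and 110 after 6 h, and at 7.76 and 7.21 in dark hypocotyls and 31.1 and 30.2 after 6 h. It rose by 1.17 ± 0.15 in cotyledons and 1.90 ± 0.15 in hypocotyls, with a difference of 0.73 that was under the limit of 1. ZDS, the zeta-carotene desaturase, rose after 3 h by 1.01 ± 0.14 in cotyledons and 1.31 ± 0.14 in hypocotyls. Z-ISO, the isomerase between them, rose in cotyledons after 6 h (1.03 ± 0.09), and CRTISO (AT1G06820), which straightens the last double bonds into lycopene, reached 0.88 in cotyledons and 0.80 in hypocotyls at most, with no call. Of the 5 genes of this stretch, PSY included, 4 rose after 6 h in cotyledons (16.9% of all tested genes) and 2 in hypocotyls (14.2%), and a difference between the tissues after 6 h was called for PSY alone.

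The cotyledon calls among them lay close to the limit. ZDS was 0.98 at both 3 h and 6 h without the dark cotyledon replicate A, 0.98 after 3 h without the 3 h replicate A and 0.99 after 6 h without the 6 h replicate A. Z-ISO after 6 h was 0.97 without the dark cotyledon replicate B. Quantile normalization took PDS3 to 0.92 and Z-ISO to 0.93 after 6 h, and ZDS to 0.69 after 3 h and 0.73 after 6 h. In the authors' deposited table ZDS changed by 0.99 after 3 h and 0.96 after 6 h, and Z-ISO by 1.00 after 6 h, just under the limit.

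**Figure D3:**
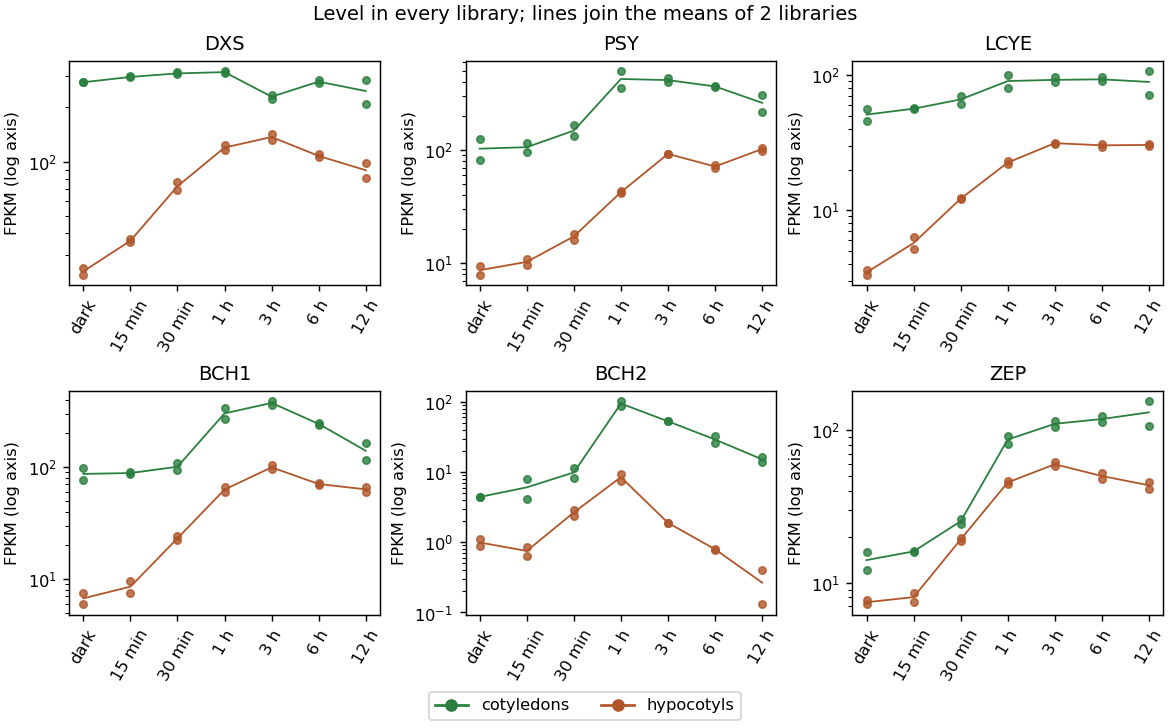
FPKM in every library (points, log axis; lines join the means of 2 libraries) for DXS, PSY, LCYE, BCH1, BCH2 and ZEP in darkness and at 6 times in light, with cotyledons in green and hypocotyls in brown. DXS is flat in cotyledons while it rises from 25.5 and 23.4 to 142 and 132 FPKM after 3 h in hypocotyls. BCH2 peaks after 1 h in both tissues before it drops below its low dark level in hypocotyls, where no fall was called.

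At the branch after lycopene, limma called LCYE (AT5G57030) in hypocotyls from 30 min on and LCYB (AT3G10230) at no time in light. LCYB came close to the limit in hypocotyls after 6 h, and passed it in the authors' deposited table. LCYE, whose product leads to lutein, was at 3.59 and 3.32 FPKM in dark hypocotyls, 5.13 and 6.28 after 15 min, 12.1 and 12.3 after 30 min, 23.2 and 21.9 after 1 h and 31.6 and 31.2 after 3 h, and stayed between 29.3 and 31.2 to 12 h. Each of these groups up to 3 h lay above the one before it with no overlap. In cotyledons LCYE was at 45.5 and 56.6 FPKM in darkness, 80.6 and 100.4 after 1 h and 96.2 and 90.2 after 6 h, a change of 0.86 that was not called. In hypocotyls the change was 1.56 ± 0.15 after 30 min and 2.86 ± 0.15 after 3 h (7.26-fold, adjusted p = 8.6e-13), and it exceeded that of cotyledons by 1.19 ± 0.21 after 30 min and 2.01 ± 0.21 after 3 h.

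LCYB, which makes the beta rings of both branches, was at 40.5 and 45.9 FPKM in dark cotyledons and 62.3 and 64.3 after 6 h, and at 21.1 and 19.5 in dark hypocotyls and 40.9 and 42.4 after 6 h. Its changes of 0.55 and 1.00 after 6 h were not called, and the second lay just under the limit. In the authors' deposited table LCYB rose in hypocotyls after 6 h by 1.04 with a q of 1.6e-04, which passes the same limits. The ratio of LCYE to LCYB in a library was 1.12 and 1.23 in dark cotyledons, 1.67 and 2.15 after 1 h, and 1.14 and 1.29 after 12 h. In hypocotyls it was 0.170 in both dark libraries, 0.534 and 0.496 after 30 min, 0.775 and 0.728 after 1 h and 0.801 and 0.806 after 12 h. Every hypocotyl library had less LCYE than LCYB and every cotyledon library had more. Genes on the other strand share 13.5% of the 50 nt stretches of LCYB. Its values and the ratio are therefore uncertain where reads were counted without strand.

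The P450 hydroxylases CYP97A3 (AT1G31800) and CYP97C1 (AT3G53130), which are known to act together on the way to lutein, were first called after 3 h. CYP97A3 in hypocotyls was at 0.757 and 1.31 FPKM in darkness, 2.92 and 2.54 after 1 h, 18.2 and 17.8 after 3 h, 37.6 and 36.7 after 6 h and 46.2 and 48.5 after 12 h. That was the largest change of any member against darkness, 4.58 ± 0.19 after 12 h (adjusted p = 4.4e-14). In cotyledons it was at 20.3 and 28.6 FPKM in darkness and 160 and 162 after 6 h (2.69 ± 0.19), and the tissues differed in response by 1.55 ± 0.28 after 6 h. At 3 h they differed by 1.21 ± 0.28, which became 0.97 without the dark cotyledon replicate B. CYP97C1 was at 18 and 26.3 FPKM in dark cotyledons and 24.9 and 38.5 after 12 h with no call, and rose in hypocotyls from 1.62 and 1.93 to 14.2 and 12.6 after 6 h (2.38 ± 0.18). A neighbour on the same strand shares 40.5% of the 50 nt stretches of CYP97C1, whose values are uncertain for that reason.

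BCH1 (AT4G25700) and BCH2 (AT5G52570), the non-heme hydroxylases that turn beta-carotene into zeaxanthin, had both risen by 1 h in both tissues, and their levels then parted. BCH1 in cotyledons was at 76.1 and 97.4 FPKM in darkness, 266 and 337 after 1 h, 389 and 358 after 3 h, 237 and 248 after 6 h and 116 and 163 after 12 h. Hypocotyl libraries were at 5.92 and 7.49 FPKM in darkness, 22.2 and 24 after 30 min, 66.5 and 59.3 after 1 h, 95.1 and 103 after 3 h and 66.4 and 59.8 after 12 h. Both tissues had their highest BCH1 mean after 3 h, with changes of 2.1 ± 0.16 in cotyledons (4.29-fold) and 3.71 ± 0.16 in hypocotyls (13.1-fold, adjusted p = 4.0e-14). At 12 h the cotyledon change of 0.67 was no longer called, while the hypocotyl change was 3.06 ± 0.16. Quantile normalization took the cotyledon change after 6 h from 1.48 to 0.96.

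BCH2 in cotyledons was at 4.35 and 4.47 FPKM in darkness, 8.31 and 11.4 after 30 min, 86.0 and 103 after 1 h, 53.0 and 52.6 after 3 h, 32.2 and 25.9 after 6 h and 16.4 and 13.9 after 12 h. Levels in hypocotyls were 1.10 and 0.889 FPKM in darkness, 2.92 and 2.40 after 30 min, 7.54 and 9.36 after 1 h, 1.90 and 1.88 after 3 h, 0.777 and 0.812 after 6 h and 0.402 and 0.130 after 12 h. All light libraries from 30 min on were above the dark ones in cotyledons, whereas in hypocotyls those of 6 h and 12 h were below them. The change after 1 h was 4.14 ± 0.20 in cotyledons (17.6-fold, adjusted p = 9.6e-13) and 2.24 ± 0.20 in hypocotyls, where the authors' deposited table gives 3.11 with a q of 0.117. At 12 h it was 1.58 ± 0.20 in cotyledons and −0.66 in hypocotyls, which was not called. The hypocotyl libraries held between an estimated 1.26 and 226 reads of BCH2 each, so that the levels after 12 h rest on few reads.

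The tissues therefore differed in opposite directions for these paired genes. The hypocotyl response of BCH1 exceeded that of cotyledons by 1.43 ± 0.22 after 30 min and 2.39 ± 0.22 after 12 h. That of BCH2 fell short by −1.89 ± 0.28 after 1 h, −2.77 ± 0.28 after 3 h and −2.24 ± 0.28 after 12 h. The size of these differences depends on the scale, which compresses changes of the low hypocotyl levels. The authors' deposited table gives BCH2 changes of 4.42 in cotyledons and 3.11 in hypocotyls after 1 h, which lie closer together. Its changes of 1.70 and −1.90 after 12 h lie farther apart. The ratio of BCH2 to BCH1 in cotyledons was 0.0572 and 0.0459 in darkness, 0.324 and 0.306 after 1 h and 0.136 and 0.104 after 6 h. In hypocotyls it was 0.185 and 0.119 in darkness, 0.113 and 0.158 after 1 h, 0.0200 and 0.0182 after 3 h and 0.0107 and 0.0118 after 6 h. None of the 50 nt stretches of BCH1 or BCH2 occurs in another gene. A part of the motifs in the windows printed above in these levels was not tested.

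**Figure D4:**
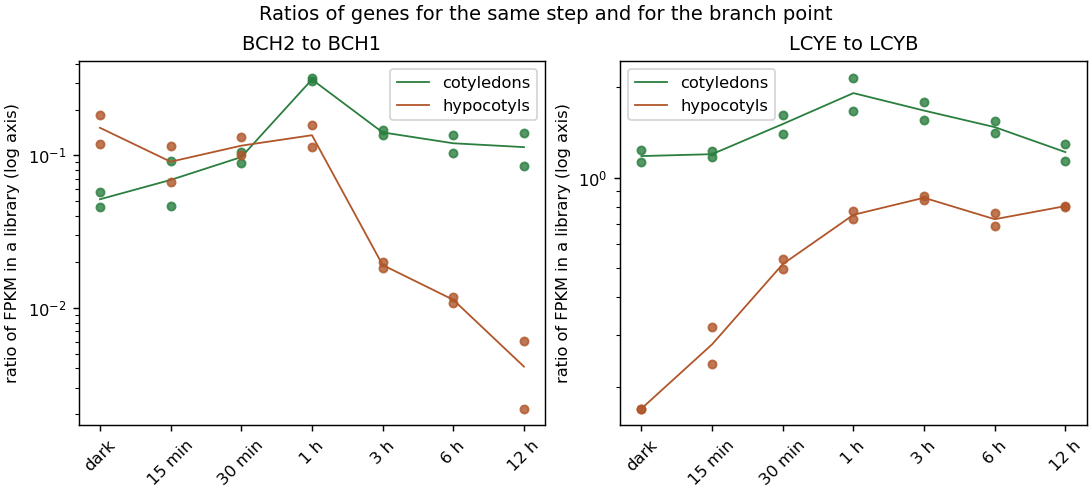
Ratio of FPKM in each library (points, log axis; lines join the means) for BCH2 to BCH1 and for LCYE to LCYB, in darkness and at 6 times in light. The BCH2 to BCH1 ratio of hypocotyls drops from 0.113 and 0.158 after 1 h to 0.0107 and 0.0118 after 6 h while that of cotyledons is 0.136 and 0.104; the LCYE to LCYB ratio of hypocotyls climbs from 0.170 to about 0.8.

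In the xanthophyll cycle, ZEP (AT5G67030) rose early in both tissues and VDE (AT1G08550) late. ZEP, the zeaxanthin epoxidase, was at 12.2 and 16 FPKM in dark cotyledons, 81.4 and 92.2 after 1 h and 106 and 156 after 12 h. In hypocotyls it was at 7.20 and 7.69 FPKM in darkness, 18.8 and 19.6 after 30 min, 44.2 and 46.7 after 1 h and 61.7 and 57.9 after 3 h. The changes after 1 h were 2.55 ± 0.14 and 2.46 ± 0.14, with a difference of −0.09 (adjusted p = 0.78), and after 12 h 3.12 ± 0.14 and 2.40 ± 0.14. No difference between tissues was called for ZEP at any time. VDE, the violaxanthin de-epoxidase that works in the reverse direction, was at 43.3 and 54.3 FPKM in dark cotyledons and 105 and 128 after 12 h (1.24 ± 0.13, or 0.97 after quantile normalization). Its hypocotyl libraries held 2.86 and 2.63 FPKM in darkness, 4.05 and 3.59 after 1 h, 15.3 and 15.6 after 3 h and 36.3 and 35.9 after 12 h (3.31 ± 0.13, adjusted p = 9.3e-15). The ratio of ZEP to VDE peaked at 10.9 and 13 after 1 h in hypocotyls, from 2.52 and 2.92 in darkness, and was 1.26 and 1.15 after 12 h; in cotyledons it went from 0.281 and 0.294 in darkness to 1.99 and 2.07 after 3 h and 1.01 and 1.21 after 12 h. A neighbour on the other strand shares 17.7% of the 50 nt stretches of VDE.

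ABA4 (AT1G67080), which is needed for neoxanthin, rose in hypocotyls alone, where its level passed that of cotyledons. It was between 29.2 and 45.6 FPKM in all cotyledon libraries, with no call. Hypocotyl libraries were at 21.7 and 21.9 FPKM in darkness, 112 and 118 after 3 h, 87.2 and 88.9 after 6 h and 65.5 and 75.1 after 12 h. The change after 3 h was 2.35 ± 0.11 (5.08-fold, adjusted p = 1.1e-13), and the difference between tissues was 1.92 ± 0.15. At 12 h hypocotyls were at 199.9% of the cotyledon mean, a difference of 0.99 that was just under the limit. OR (AT5G61670), the ORANGE protein known to stabilise phytoene synthase, had its highest mean after 1 h in both tissues, at 65.2 and 67.4 FPKM in cotyledons from 33.3 and 34.0, and at 55.2 and 51.4 in hypocotyls from 20.3 and 21.8. It was called in hypocotyls after 1 h (1.3 ± 0.10) and 12 h (1.04 ± 0.10), and its cotyledon change of 0.96 after 1 h was under the limit. The call after 12 h ended without the dark replicate A or the 12 h replicate B of hypocotyls, at 0.99 each.

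Among the cleavage genes CCD1 (AT3G63520), CCD4 (AT4G19170) and NCED3 (AT3G14440) moved, each in a different way. CCD1, an enzyme that cuts several carotenoids outside the plastid, was between 163 and 264 FPKM in cotyledons with no call. Levels in hypocotyls were 28.5 and 33 FPKM in darkness, 51.5 and 52.8 after 1 h, 116 and 123 after 3 h, 167 and 166 after 6 h and 161 and 155 after 12 h. The hypocotyl change after 6 h was 2.40 ± 0.12 (5.28-fold, adjusted p = 2.5e-13), and exceeded that of cotyledons by 2.46 ± 0.16. CCD1 in hypocotyls was at 16.3% of the cotyledon mean in darkness and 92.7% after 6 h. CCD4, a plastid enzyme that degrades beta-carotene, was at 6.89 and 7.59 FPKM in dark cotyledons, 4.37 and 4.66 after 3 h and 17.3 and 17.6 after 12 h (1.16 ± 0.16). In hypocotyls CCD4 was at 1.46 and 0.915 FPKM in darkness and 3.82 and 2.71 after 12 h, a change of 0.96 that was not called. The authors' deposited table gives 1.45 with a q of 4.3e-04 for this change, which passes the same limits. Whether CCD4 counts as risen in hypocotyls therefore depends on the method.

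NCED3, the dioxygenase known for abscisic acid synthesis under drought, was the only member called higher in hypocotyls in darkness and after 12 h. It was at 5.75 and 6.57 FPKM in dark hypocotyls, 7.54 and 5.96 after 1 h, 2.54 and 2.57 after 3 h, 3.52 and 3.03 after 6 h and 4.62 and 4.26 after 12 h, and at 0.0828 to 0.610 FPKM in cotyledon libraries. NCED3 fell by 1.01 ± 0.16 (SE, log2) after 3 h, which became −0.92 without the dark replicate B and −0.9998 without the 3 h replicate A. Cotyledon libraries held an estimated 1.89 to 14.1 reads of NCED3. ABA2 (AT1G52340), a short-chain dehydrogenase that acts late in abscisic acid synthesis, was between 5.53 and 12.8 FPKM in all libraries with no call; 34.3% of its 50 nt stretches lie in genes on the other strand, and its values are uncertain where reads were counted without strand.

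The members below the filter were near the limit of detection. CCD7 (AT2G44990) was listed at 0 in all 14 cotyledon libraries and in 11 of the 14 hypocotyl libraries, where its highest value was 0.0321 FPKM. CCD8 (AT4G32810) was between 0.0271 and 0.579 FPKM and NCED9 (AT1G78390) between 0 and 0.412 FPKM. NCED5 (AT1G30100) was at 0.466 and 1.21 FPKM in dark hypocotyls and at 0.0957 FPKM or less in every lit hypocotyl library; in cotyledons it was at 0.338 FPKM or less. No test was made for these 4 genes.

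The response itself was compared between tissues by the difference of the changes. At 15 min limma called 0 differences among the 29 members, against 0.503% of all tested genes, with 3 members higher and 0 lower at an unadjusted p under 0.05. At 30 min 3 members (DXS, LCYE and BCH1) responded more in hypocotyls, against 1.15% of all tested genes, and after 1 h the same 3, against 4.86%, while BCH2 responded less, against 5.04%. At 3 h 9 members responded more, against 15.5%, and 2 responded less, against 13.5%. The counts after 6 h were 9 (17.8%) and 2 (19.1%), and after 12 h 11 (16.5%) and 1 (17.3%). The members that responded more in hypocotyls after 3 h and after 6 h were DXS, PSY, LCYE, CYP97A3, CYP97C1, BCH1, VDE, ABA4 and CCD1, with CMK and HDR in addition after 12 h. GGPPS11 and BCH2 responded less after 3 h and 6 h, and BCH2 alone after 12 h. Counted in either direction, 11 of 29 members after 6 h, or 37.9%, stand beside 36.9% of all tested genes, so that the share of members with a difference was near the background.

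Genes of the neighbouring pathways were counted by the same rule. The cytosolic mevalonate list, 13 genes that lead to sterols, went the opposite way from the MEP genes in hypocotyls. There 8 of 13 fell after 6 h, when 11.9% of all tested genes fell, and 11 after 12 h, against 14.2%, with a median change of −1.75 after 12 h. HMGS, which makes the substrate of the rate-limiting reductase, went from 192 ± 4.8 FPKM (SD, n = 2) in dark hypocotyls to 17.4 ± 2.26 after 6 h (−3.40 ± 0.15, SE). AACT2, the thiolase of the first step, went from 154 ± 2.68 to 19.2 ± 1.5 FPKM (−2.94 ± 0.12). In cotyledons 2 rose and 2 fell after 6 h, when 16.9% of all tested genes rose and 11% fell: SQE1, a squalene epoxidase, and HMGS were higher by 1.40 ± 0.13 and 1.20 ± 0.15, and the reductases HMG1 and HMG2 were lower by −1.13 ± 0.14 and −1.18 ± 0.14. In darkness 10 of the 13 were higher in hypocotyls than in cotyledons, against 23.4% of all tested genes, with HMGS at 17.1 ± 4.17 FPKM in dark cotyledons. The MEP genes had a median change of 1.08 in hypocotyls and 0.87 in cotyledons after 6 h, against −1.28 and −0.19 for the mevalonate list.

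**Figure D5:**
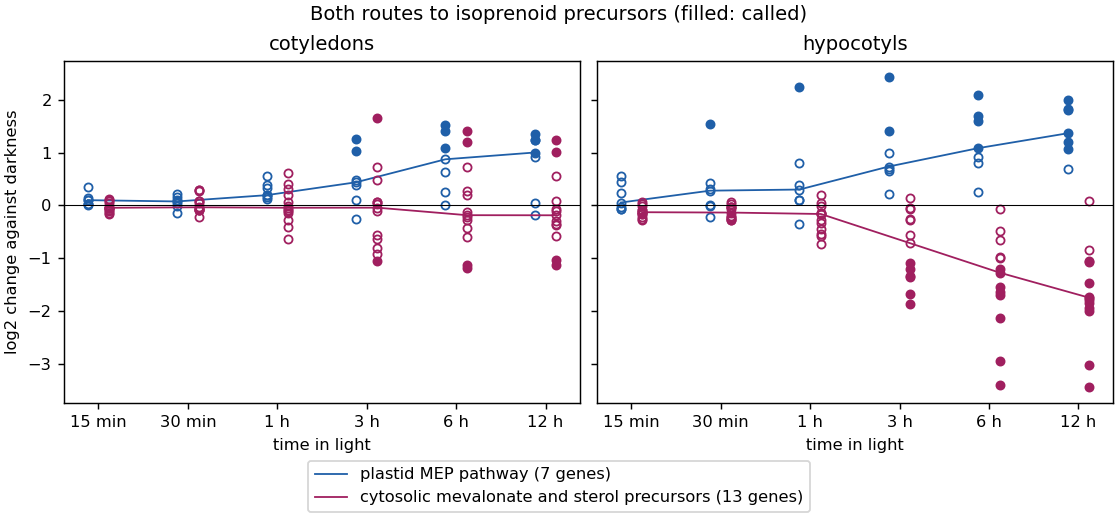
Log2 change against darkness on the log2(FPKM + 1) scale of the 7 MEP pathway genes (blue) and the 13 cytosolic mevalonate and sterol precursor genes (purple) at 6 times in light, with filled points for calls and lines through the medians of each list. The lists diverge in hypocotyls, with medians of 1.08 and −1.28 after 6 h, and lie closer in cotyledons, at 0.87 and −0.19.

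Other routes that use plastid precursors were counted after 6 h, when 16.9% of all tested genes rose and 11% fell in cotyledons, and 14.2% rose and 11.9% fell in hypocotyls. Of 11 genes of tocopherol and plastoquinone synthesis, 5 rose and 1 fell in cotyledons, and 6 rose in hypocotyls. VTE1, the tocopherol cyclase, rose by 3.00 ± 0.16 and 3.36 ± 0.16. HPPD, which supplies the aromatic head group, was lower in cotyledons by −1.78 ± 0.19. For the chlorophyll side chain, CHLP (geranylgeranyl reductase) and CHLG (chlorophyll synthase) rose in hypocotyls after 6 h by 2.58 ± 0.15 and 3.11 ± 0.17 and were not called in cotyledons (0.05 and 0.62); both were lower in dark hypocotyls, by −5.34 ± 0.15 and −4.72 ± 0.17. Of 4 tested gibberellin precursor genes limma called 0 after 6 h in either tissue, with 0 higher and 2 lower in cotyledons and 1 and 1 in hypocotyls with an unadjusted p under 0.05. Of 3 tested further plastid isoprenoid genes, GPS1, a prenyl diphosphate synthase, rose by 1.04 ± 0.13 and 1.70 ± 0.13, GGPPS12 rose in hypocotyls (2.22 ± 0.11), and DJC26 was lower in cotyledons by −1.96 ± 0.16. Among 5 further carotenoid-linked genes 2 rose in cotyledons and 3 in hypocotyls, led by the plastoglobule protein FBN1a in cotyledons (3.83 ± 0.21) and the P450 CYP97B3 in hypocotyls (1.85 ± 0.13). Of 5 tested genes of abscisic acid synthesis and breakdown, CYP707A2, an abscisic acid hydroxylase, rose by 4.26 ± 0.15 and 3.83 ± 0.15, and CYP707A1 was lower in cotyledons by −1.33 ± 0.17. Of 6 strigolactone and karrikin genes 3 rose in cotyledons, with the isomerase D27 at 3.61 ± 0.20, and 2 in hypocotyls, with the karrikin receptor KAI2 at 2.61 ± 0.08. Of the factors known to bind the PSY promoter, HY5 was at 82.5 ± 8.63 FPKM (SD, n = 2) in dark cotyledons and 302 ± 11.9 after 1 h, and at 21.9 ± 0.023 and 358 ± 6.95 in hypocotyls. At 6 h HY5 was at 55 ± 1.95 FPKM in cotyledons, below its dark level and with no call, and at 108 ± 5.08 in hypocotyls (2.25 ± 0.11), while PIF1 was between means of 19.2 and 42.0 FPKM.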

How the data were processed

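Poly(A) RNA libraries of cotyledons with the shoot apical meristem and of hypocotyls were grouped by the labels into 14 groups of 2. The submitters' processing notes name CASAVA 1.8.2, TopHat2 2.0.8, Cuffdiff 2.1.1, Cuffnorm without a version, and the build TAIR10. The deposited table holds FPKM per locus for each library. The authors' deposited Cuffdiff table, which lists 31 of the 33 members, holds log2 fold changes and q-values (p-values adjusted by the authors), in which infinite changes appear as spreadsheet errors. The titles call the libraries stranded while the kit named in the labels' protocols is TruSeq v2, and the sources used here do not say whether counting used strand. FPKM scales each gene to the rest of its library, so that a few very abundant transcripts can shift the others. The summed FPKM was not constant. In cotyledons it was 774142 and 809446 in darkness and 1.12e+06 in both libraries after 6 h. In hypocotyls it was 851496 and 853003 in darkness and 753523 and 792899 after 6 h. The part of these sums in the calls was not tested.

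Members and lists were chosen with earlier results of these data known. FPKM was tested as log2(FPKM + 1) with limma 3.58.1 (R 4.3.3; trended, robust variance) over 28 libraries with 1 mean per group and 14 residual degrees of freedom, for the 18678 genes whose mean reached 1 FPKM. Adjusted p-values (Benjamini-Hochberg) under 0.05 with a log2 change of at least 1 were called in 20 comparisons. A fold change on this scale understates the change of low genes. On simulated data with the same 18678 genes, for cotyledons at 6 h, 65 of 69 genes with an added log2 change of 1.5, 49 of 49 with 2 and 52 of 52 with 3 were called, with 1 false call. Genes whose added decrease would have taken them to the floor of the scale or below were left out of these counts. The simulated spread was normal on the log2 scale, so that the shares hold for that setting only. Depth was estimated from the steps of low values, with a tolerance of 0.1. Alternatives were a pseudocount of 0.1 FPKM, no filter, quantile normalization, the replicate letter as a block, each replicate left out, and the authors' values. Sequences were read from the RefSeq genome of TAIR10.1. Any member could be named; values per library were given for the largest called changes of each step, branch points and paired genes, and of each other list up to 2 genes per direction and tissue.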

Additional observations from a re-analysis of the deposited data

Results flagged for a closer look

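For the members below, the light response differed between the tissues, by limma's contrast of the hypocotyl change minus the cotyledon change on the log2(FPKM + 1) scale (adjusted p under 0.05 and a size of at least 1). Each value rests on 2 libraries in each of 4 groups, and the differences of a gene share the same dark libraries. After 6 h 37.9% of the members differed in either direction, against 36.9% of all tested genes. Some calls of CMK, HDR, PSY, CYP97A3 and GGPPS11 ended in alternatives given above, and GGPPS11 is covered by an antisense locus.

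DXS responded more in hypocotyls, by 1.37 at 30 min, 2.06 at 1 h, 2.70 at 3 h, 2.08 at 6 h and 2.00 at 12 h. CMK had the larger response in hypocotyls, by 1.08 at 12 h. HDR exceeded its cotyledon response in hypocotyls by 1.15 at 12 h. PSY responded more in hypocotyls, by 1.24 at 3 h, 1.06 at 6 h and 2.07 at 12 h. LCYE had the larger response in hypocotyls, by 1.19 at 30 min, 1.59 at 1 h, 2.01 at 3 h, 1.95 at 6 h and 2.05 at 12 h. CYP97A3 exceeded its cotyledon response in hypocotyls by 1.21 at 3 h, 1.55 at 6 h and 1.97 at 12 h. CYP97C1 responded more in hypocotyls, by 1.42 at 3 h, 1.78 at 6 h and 1.87 at 12 h. BCH1 had the larger response in hypocotyls, by 1.43 at 30 min, 1.27 at 1 h, 1.60 at 3 h, 1.74 at 6 h and 2.39 at 12 h. VDE exceeded its cotyledon response in hypocotyls by 1.98 at 3 h, 2.19 at 6 h and 2.07 at 12 h. ABA4 responded more in hypocotyls, by 1.92 at 3 h, 1.95 at 6 h and 1.45 at 12 h. CCD1 had the larger response in hypocotyls, by 1.67 at 3 h, 2.46 at 6 h and 2.19 at 12 h. GGPPS11 responded less in hypocotyls, by −1.07 at 3 h and −1.03 at 6 h. BCH2 responded less in hypocotyls, by −1.89 at 1 h, −2.77 at 3 h, −2.61 at 6 h and −2.24 at 12 h.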

How the results depend on the processing

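For the 175 calls of a member in a comparison, 1655 values under alternatives were computed, and 0 reversed in direction. The call ended in 33 values with a library left out, 18 after quantile normalization and 5 in the authors' table, and in 0 with the replicate block, with no filter or with a pseudocount of 0.1 FPKM. The block and the filter leave each change unaltered, so there only the adjusted p could have ended a call. Members called only in the authors' table are not among these values. Examples are LCYB after 6 h and CCD4 after 12 h in hypocotyls. In cotyledons at 30 min 1 member was called with a pseudocount of 0.1 FPKM and 1 after quantile normalization, against 0; quantile normalization gave 5 against 9 at 3 h, 7 against 12 at 6 h and 6 against 10 at 12 h. The cause was not tested, and no share of all tested genes is given beside the counts under alternatives.

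With a library left out, member calls in cotyledons were 0 at 15 min, 0 to 1 at 30 min, 4 to 5 at 1 h, 6 to 10 at 3 h, 11 to 12 at 6 h and 7 to 16 at 12 h. In hypocotyls they were 0, 4 to 5, 7 to 8, 13 to 15, 13 to 15 and 18. For the difference between tissues they were 0, 3, 4, 9 to 11, 10 to 11 and 10 to 13. Between tissues they were 21 to 23 in darkness and 16 to 24 at 12 h.

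Over 91 pairs of groups the deviations of libraries with the same letter correlated at −0.112 to 0.163 (median 0.0053), with 3 over 0.1. Cotyledon and hypocotyl groups of the same time were not taken apart, so that a pairing of those libraries was not tested. With the letter as a replicate block the counts of calls were those of the fit without it (for example 12 members in cotyledons and 14 in hypocotyls at 6 h). Each group holds both letters, so the block left every change as it was and could alter only its p-value. The equal counts therefore cannot show whether a batch was present. A group of 2 libraries gives little information on its own spread, and members under about 1 FPKM rest on few reads.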
